A study of Mus musculus with 6 samples.

Results

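TGF-beta, BMP and activin signalling was examined in mouse LECs, the lymphatic endothelial cells that form the wall of lymph vessels. All probe sets whose platform annotation gave a single symbol among 34 genes of the pathway were taken, which gave 75 probe sets for all 34 genes, out of 45037 probe sets and 18193 genes in all. The genes comprised 9 ligands, 9 receptors, 8 SMADs, 3 target genes and 5 antagonists or modulators. Of the 6 arrays, 3 held LECs from healthy balb-c/nude mammary skin and 3 held LECs from subcutaneous MDA-MB-435 xenografts excised at 8 weeks after injection. MDA-MB-435 is a human tumour line, once taken for breast carcinoma and since shown to derive from a melanoma. In both groups the cells were cut by laser capture from sections stained for LYVE-1, a hyaluronan receptor that some macrophages carry as well, and their RNA went through a single round of Ribo-SPIA amplification. The labels give that strain for the skin samples only and no age, and they speak of biological replicates but name no animal behind any of them, so the p-values measure the spread between these samples.

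In this pathway, dimeric ligands bring together a type II and a type I receptor kinase, and the type I receptor phosphorylates a receptor SMAD. TGF-beta and activin ligands act through SMAD2 and SMAD3, and BMPs through SMAD1, SMAD5 and SMAD9; both branches use SMAD4, and SMAD6 and SMAD7 inhibit them. In endothelium BMPs act largely through ALK1 (Acvrl1), ALK2 (Acvr1) and BMPR2 and induce the ID proteins, while TGF-beta is known to restrain the growth of lymphatic endothelium.

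Every array was set against its own background, taken as the 95th percentile of its 27 probe sets for bacterial control transcripts, which lay between 2.96 and 3.91 (log2 signal); 41.7% to 56.0% of probe sets in healthy skin and 39.6% to 48.4% in tumours exceeded it. The labelled cell type was checked with marker genes. All 7 measured LEC markers were higher on average in tumours, with summed linear signals of 517 to 1236 in healthy skin and 2264 to 2667 in tumours. Lyve1 itself had 3.21, 7.58 and 6.81 (log2) in healthy-skin replicates 1, 2 and 3 and 9.64, 9.41 and 9.65 in the tumours, so that healthy-skin replicate 1 lay below its background of 3.81. The 10 pan-endothelial markers summed to 313 to 410 in healthy skin and 926 to 996 in tumours. The 13 keratinocyte markers summed to 5261 to 8416 in healthy skin and 411 to 3269 in tumours, and 12 of them were lower in tumours. In such captures a change within a cell and a change in the cells captured cannot be told apart.

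The receptors parted in both directions: Acvr1 and, on its representative probe set, Acvr2a were higher in every tumour array than in any healthy-skin array, and Bmpr1a was lower in the tumours on average. Id3, a target of BMP signalling, was higher in every tumour array, and the SMADs, ligands and antagonists showed smaller or less even differences. None of the 75 probe sets passed limma at an adjusted p under 0.05, a threshold that 2 of all 45037 probe sets passed (0.00444%). Each gene was represented by its probe set of highest mean. An unadjusted limma p under 0.05 with higher values in tumours was found for 3 of the 34 genes (Acvr1, Acvr2a and Id3). This is 8.82% against 3.22% of all genes, and 0 genes had such a p with lower values, against 4.28%. Over both directions together the share was 8.82% of the members against 7.5% of all genes, which is close. The groups did not overlap in 3 genes higher in tumours (8.82%, against 6.58% of all genes) and in 1 lower in tumours, Smad5 (2.94%, against 5.36%). Positive differences were found for 21 of the 34 genes (61.8%, against 57.3% of all genes), and the median difference was 0.31 (log2), against 0.08 over all genes. Over the 75 probe sets, 10 (13.3%) had an unadjusted p under 0.05 or groups that did not overlap, against 12.1% of all probe sets. Over both directions, the count of 3 genes became 5 with healthy-skin replicate 1 left out (beside 9.45% of all genes). It was 5 with healthy-skin replicate 3 left out (6.85%) and 6 with tumour replicate 2 left out (8.67%). Of the 34 representative probe sets, 27 exceeded the background on at least 3 arrays and 19 on all 6; Bmp2, Smad6, Smad7 and Nog exceeded it on none.

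**Figure D1:**
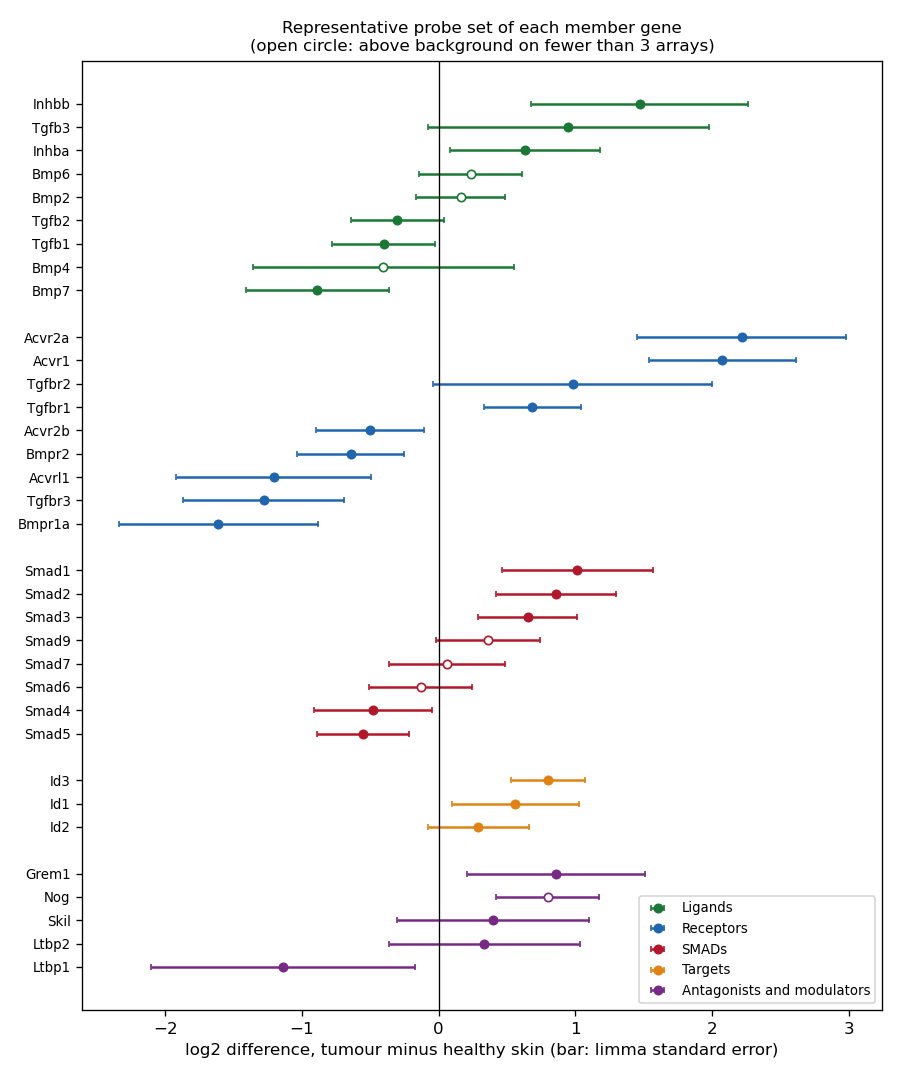
Log2 difference (tumour minus healthy skin, horizontal axis) of the representative probe set of each of the 34 genes, grouped by role; bars are limma standard errors and open circles mark probe sets above background on fewer than 3 of 6 arrays. Acvr2a (2.22) and Acvr1 (2.08) lie farthest to the right and Bmpr1a (-1.61) farthest to the left, and many bars cross 0.

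Among the receptors, Acvr1, which encodes the type I BMP receptor ALK2, had 4.27, 3.82 and 3.70 (log2 signal) in healthy-skin replicates 1, 2 and 3 and 6.54, 6.67 and 4.81 in tumour replicates 1, 2 and 3. All tumour values lay above all healthy-skin values, and tumour replicate 3 was well below the other tumours. The means were 3.93 ± 0.30 and 6.01 ± 1.04 (SD, n = 3), a log2 difference of 2.08 with a standard error of 0.54, or 4.22-fold, which did not pass (limma adjusted p = 0.572). The other Acvr1 probe sets, 1416787_at and 1448460_at, exceeded background on no array and differed by 0.49 and 0.08. Acvr1 was the only member whose unadjusted p stayed under 0.05 with each of the 6 arrays left out in turn, with differences of 1.74 to 2.68. The summed linear signal of the 8 pericyte and smooth muscle markers was also lowest in tumour replicate 3 among the tumours. It was 1785, 1767 and 342 in tumour replicates 1, 2 and 3, against 616 to 902 in healthy skin. On average 6 of the 8 markers were higher in tumours. Some markers departed from the sum. Among the tumours, Cspg4 (5.35, 4.88 and 5.06) and Myh11 (8.46, 5.98 and 6.66) were lowest in replicate 2. Kcnj8 (2.89, 3.44 and 3.26) was lowest in replicate 1. The 8 fibroblast markers summed to 13299, 15548 and 1309 in the tumours, against 8807 to 23543 in healthy skin, and 2 of the 8 were higher. None of these markers was below background on all arrays, and their part in the Acvr1 result was not tested.

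Acvr2a, a type II receptor shared by activins and BMPs, had 6.01, 3.36 and 6.23 in healthy skin and 7.66, 7.02 and 7.57 in tumours on probe set 1451004_at. The groups did not overlap, and healthy-skin replicate 2 lay far below the others of its group. The means of 5.20 ± 1.60 and 7.42 ± 0.35 (SD, n = 3) gave a log2 difference of 2.22 with a standard error of 0.76 (4.65-fold, limma adjusted p = 0.71). Without healthy-skin replicate 2 the difference was 1.30. Its second probe set, 1437382_at, which exceeded background on all arrays, had 5.25, 6.90 and 6.92 in healthy skin and 4.94, 7.38 and 6.43 in tumours, a difference of -0.11, so the probe sets of this gene gave different pictures. Acvr2b, the related type II receptor, differed by -0.50 with a standard error of 0.40 on its representative probe set (limma adjusted p = 0.876). On 1439856_at, above background on 5 arrays, Acvr2b differed by 0.14.

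Bmpr1a, which encodes the type I BMP receptor ALK3, was covered by 6 probe sets. On 1425491_at it had 5.11, 6.98 and 7.20 in healthy skin and 3.56, 5.08 and 3.88 in tumours. The groups did not overlap there, although tumour replicate 2 came close to healthy-skin replicate 1, and the log2 difference was -2.26 with a standard error of 0.67 (limma adjusted p = 0.639). On 1425494_s_at, whose suffix marks probes that may match other transcripts too, it had 5.54, 4.89 and 3.99 against 2.87, 3.72 and 3.77, a difference of -1.36 with a standard error of 0.48 (limma adjusted p = 0.713). On the representative probe set, 1425493_at, the values were 5.40, 7.29 and 5.88 against 3.41, 4.52 and 5.81. There tumour replicate 3 lay within the healthy-skin range, and the difference was -1.61 with a standard error of 0.73 (limma adjusted p = 0.804). It shrank to -1.03 without tumour replicate 1 and to -1.06 without healthy-skin replicate 2, and was -2.23 without tumour replicate 3. Of the other 3 probe sets, 1425492_at differed by -0.63, 1451729_at by -0.32 and 1445413_at by 0.37, the last below background on every array. The keratinocyte markers given above were lower in the same tumour arrays, 9 of 13 without overlap, and none was below background on all arrays. Among the tumours their summed linear signal was 3269, 1573 and 411 in replicates 1, 2 and 3. Bmpr1a ran in the opposite order on its representative probe set. It was lowest in tumour replicate 1 on 1425491_at, 1425494_s_at and 1425493_at alike. The part of these markers in the Bmpr1a result was not tested.

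The TGF-beta receptors gave smaller or less even differences. For Tgfbr1, the type I receptor ALK5, probe set 1420894_at had 2.94, 2.31 and 3.74 in healthy skin and 4.04, 3.93 and 4.45 in tumours. The groups did not overlap, but 2 of the 3 healthy-skin values lay below their array's background, and the difference of 1.14 with a standard error of 0.42 did not pass (limma adjusted p = 0.722). The representative 1420895_at, above background throughout, had 5.46, 5.28 and 6.22 against 6.36, 6.01 and 6.64, a difference of 0.69 with a standard error of 0.36. The third, 1420893_a_at, differed by -0.08. Tgfbr2, the type II receptor of TGF-beta, ranged from 3.41 to 7.23 in healthy skin and from 5.70 to 7.79 in tumours (difference 0.98, standard error 1.02), and without healthy-skin replicate 1 the difference was -0.06. Tgfbr3, the co-receptor betaglycan, had 7.21, 7.23 and 6.98 in healthy skin and 5.72, 7.12 and 4.73 in tumours, where replicate 2 stayed within the healthy-skin range (difference -1.28, standard error 0.59, limma adjusted p = 0.809). The Tgfbr3 difference was -0.72 without tumour replicate 3 and -1.91 without tumour replicate 2, and its other probe set differed by -0.26.

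On its representative probe set Bmpr2, the type II BMP receptor, had 8.01, 8.82 and 7.94 against 8.15, 7.20 and 7.49 (difference -0.64, standard error 0.39). Another Bmpr2 probe set, 1419616_at, above background on 5 arrays, pointed the other way, with a difference of 0.63 and a standard error of 0.39. Acvrl1, the endothelial type I receptor ALK1, had 6.63, 4.15 and 3.92 in healthy skin and 3.94, 3.55 and 3.60 in tumours. Healthy-skin replicate 1 alone was high there, and without it the difference of -1.21 became -0.34; the other Acvrl1 probe set differed by 0.12. On the representative probe sets of the 9 receptors, 4 were higher and 5 lower in tumours, with a median of -0.50.

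The stretches upstream of Acvr1, Acvr2a and Bmpr1a, the 3 receptors whose representative probe sets differed most, are shown for orientation. They are the 250 bases before the RefSeq start (GRCm38.p6), 5′ to 3′ on the gene's strand, for Acvr1 at chr2:58566829-58567078 (minus strand), Acvr2a at chr2:48813859-48814108 (plus strand) and Bmpr1a at chr14:34502547-34502796 (minus strand). Capitals mark CAGAC on either strand (GTCTG on the other), the core of the SMAD box, and GGCGCC, a GC-rich SMAD motif that reads the same on both strands; these motifs share no overlap in the letters shown.
Acvr1: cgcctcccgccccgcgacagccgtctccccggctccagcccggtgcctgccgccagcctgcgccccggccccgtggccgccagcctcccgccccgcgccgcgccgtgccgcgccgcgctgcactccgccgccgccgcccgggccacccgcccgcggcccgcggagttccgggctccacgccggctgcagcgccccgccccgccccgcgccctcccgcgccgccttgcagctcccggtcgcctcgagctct
Acvr2a: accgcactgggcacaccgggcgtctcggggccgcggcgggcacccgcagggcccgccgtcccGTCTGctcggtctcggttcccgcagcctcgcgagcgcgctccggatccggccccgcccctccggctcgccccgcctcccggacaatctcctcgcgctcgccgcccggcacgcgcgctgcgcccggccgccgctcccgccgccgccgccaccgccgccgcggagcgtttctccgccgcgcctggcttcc
Bmpr1a: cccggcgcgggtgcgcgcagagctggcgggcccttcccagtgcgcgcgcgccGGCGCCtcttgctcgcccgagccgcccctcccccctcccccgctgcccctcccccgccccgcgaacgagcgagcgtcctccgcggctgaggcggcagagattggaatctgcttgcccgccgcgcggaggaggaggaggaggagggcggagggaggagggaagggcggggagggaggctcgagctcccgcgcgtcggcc
Bmpr1a held a GGCGCC and Acvr2a a GTCTG, whereas neither motif was in the Acvr1 window. Over all 32851 promoter windows of this length, 42.2% held CAGAC and 9.59% held GGCGCC. Of the 27 windows of 23 member genes, 12 (44.4%) held CAGAC and 7 (25.9%) held GGCGCC. A match is a description of letters and shows no binding.

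**Figure D2:**
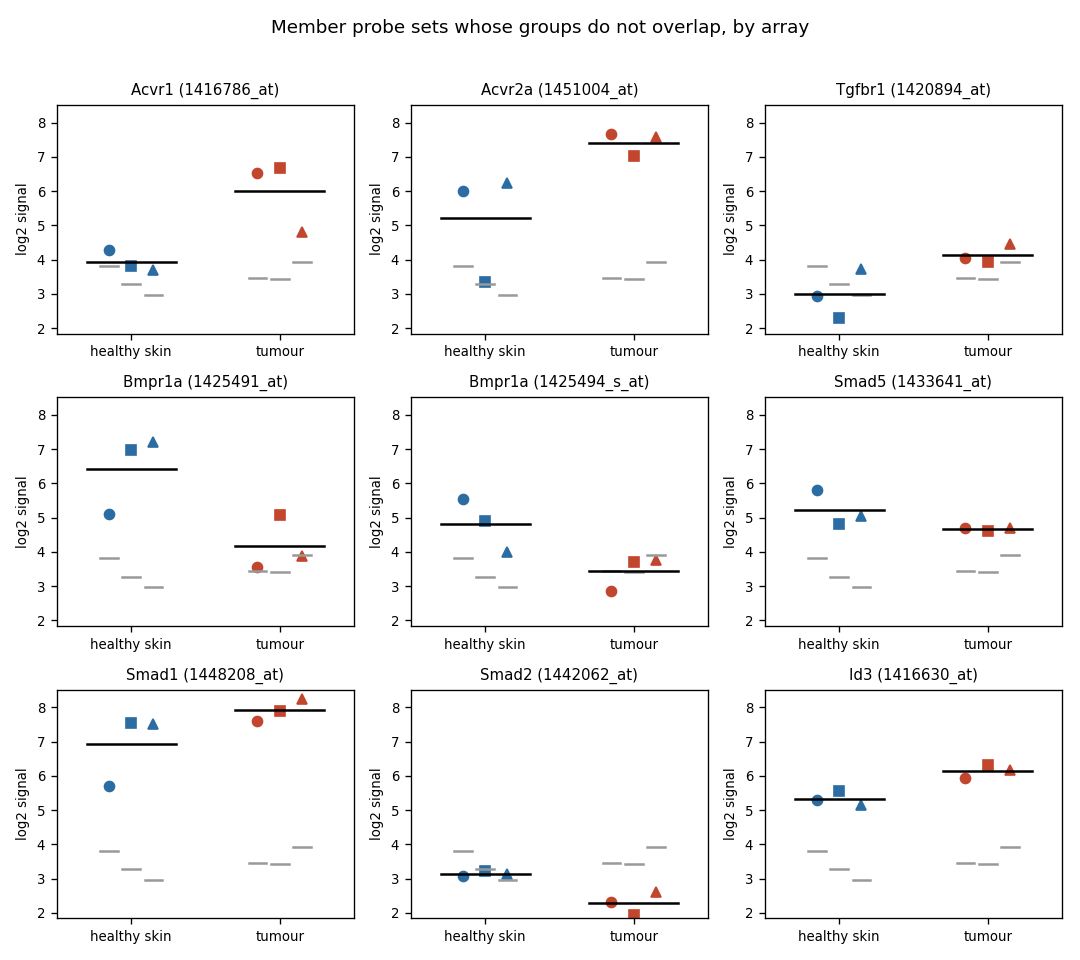
Log2 signal (vertical axis) of the 9 member probe sets whose groups did not overlap, in healthy skin (blue) and tumours (red); circles, squares and triangles are replicates 1, 2 and 3, black lines are group means and grey ticks are each array's background. Acvr1 and Acvr2a lie higher and both Bmpr1a probe sets lower in tumours, and the Smad2 values lie near or below background.

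Among the targets, the Id genes encode inhibitors of basic helix-loop-helix transcription factors and are known direct targets of BMP SMADs. Id3 had 5.28, 5.56 and 5.16 in healthy skin and 5.92, 6.32 and 6.17 in tumours. The groups did not overlap and the spread within each was small, 5.33 ± 0.20 against 6.14 ± 0.20 (SD, n = 3). The log2 difference of 0.80 with a standard error of 0.27 (1.74-fold) did not pass (limma adjusted p = 0.709). Leaving out each array in turn gave Id3 differences of 0.71 to 0.92. Id1 had 4.84, 3.77 and 3.21 against 4.36, 4.89 and 4.26; healthy-skin replicate 1 lay among the tumours, and the difference was 0.56 with a standard error of 0.46. It was 1.01 without healthy-skin replicate 1, but 0.20 without healthy-skin replicate 3 and 0.37 without tumour replicate 2. Id2 had 5.03, 4.08 and 4.38 against 4.76, 5.22 and 4.39, groups that overlapped (difference 0.29, standard error 0.37), and its other probe sets differed by 0.04 and -0.07. All 3 targets had positive differences, with a median of 0.56. All 10 pan-endothelial markers were higher on average in the same tumours, with the sums given above and none below background on all arrays, and their part in the Id3 result was not tested. Id4, a family member outside the 34 genes, pointed the other way, with differences of -1.44, -1.25 and -0.39 on its 3 probe sets. The first had a standard error of 1.19 and overlapping groups, and the others exceeded background on only 1 and 2 arrays.

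The 250 bases upstream of Id3 at chr4:136143572-136143821 (plus strand) and of Id2 at chr12:25096093-25096342 (minus strand) are from RefSeq in the same build. The same motifs are marked as before, within these windows only. The promoter set used held no window for Id1.
Id3: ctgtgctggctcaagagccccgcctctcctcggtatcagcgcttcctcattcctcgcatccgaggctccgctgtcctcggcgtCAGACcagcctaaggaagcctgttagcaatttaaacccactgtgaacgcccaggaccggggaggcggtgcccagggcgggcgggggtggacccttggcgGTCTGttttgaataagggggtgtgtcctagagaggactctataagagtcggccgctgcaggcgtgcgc
Id2: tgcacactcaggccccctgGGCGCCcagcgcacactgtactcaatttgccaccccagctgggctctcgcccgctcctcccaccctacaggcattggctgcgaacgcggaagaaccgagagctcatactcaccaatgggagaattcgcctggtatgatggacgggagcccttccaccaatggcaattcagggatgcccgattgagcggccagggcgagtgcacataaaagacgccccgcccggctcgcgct
Id3 held 2 copies of the CAGAC motif, as CAGAC and as GTCTG, and no GGCGCC. Id2 held a GGCGCC and no CAGAC.

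Among the SMADs, Smad1, a mediator of BMP signals, had 3 probe sets with positive differences. The suffix of the representative 1459843_s_at marks probes that may match other transcripts too. This probe set had 7.14, 6.29 and 8.49 in healthy skin and 8.16, 8.53 and 8.27 in tumours. Healthy-skin replicate 3 lay within the tumour range (difference 1.02, standard error 0.55, limma adjusted p = 0.852). That difference was 0.51 without healthy-skin replicate 2 and 1.61 without healthy-skin replicate 3. On 1448208_at the values were 5.69, 7.55 and 7.52 against 7.60, 7.90 and 8.25, without overlap but by a margin that replicates 2 and 3 of healthy skin nearly closed (difference 0.99, standard error 0.55). On 1416081_at they were 3.16, 3.42 and 4.25 against 4.08, 5.27 and 6.78, which overlapped (difference 1.77, standard error 0.69, limma adjusted p = 0.753).

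Smad5, which serves the same branch, had 5.82, 4.81 and 5.05 in healthy skin and 4.70, 4.62 and 4.71 in tumours on its representative probe set. The tumours lay just below the lowest healthy-skin value (difference -0.55, standard error 0.34, limma adjusted p = 0.867), the difference was -0.25 without healthy-skin replicate 1, and the other probe sets differed by -1.01 and 0.26. Smad9, the remaining BMP SMAD, differed by 0.36 and exceeded background on 2 arrays only.

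Smad2 and Smad3 carry TGF-beta and activin signals. The representative Smad2 probe set had 3.59, 3.57 and 4.89 against 5.25, 4.81 and 4.59 (difference 0.86, standard error 0.44), while 1442062_at had 3.09, 3.23 and 3.12 against 2.30, 1.94 and 2.59 (difference -0.87, standard error 0.28, limma adjusted p = 0.688). The second set had groups that did not overlap, but it exceeded background on 1 array only, and averaged over both probe sets the Smad2 difference was -0.0023. Smad3 had 5.83, 5.66 and 5.33 against 5.62, 6.52 and 6.65, overlapping groups with a difference of 0.65. Smad4, the shared partner, differed by -0.48 on its representative probe set and by -0.07 and 0.73 on the others. The inhibitory Smad6 and Smad7 differed by -0.13 and 0.06, both from signals below background on all arrays, so these arrays gave no measured level for them.

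Of the 9 ligands, only the activin subunit genes Inhba and Inhbb exceeded background on all 6 arrays on their representative probe sets. Inhbb, the activin beta B subunit, had 4.34, 6.91 and 4.96 in healthy skin and 7.01, 5.76 and 7.86 in tumours. Healthy-skin replicate 2 lay among the tumours, and the difference of 1.47 with a standard error of 0.79 did not pass (limma adjusted p = 0.849); the second probe set differed by 0.71. The Inhbb difference was 0.94 without healthy-skin replicate 1, 0.98 without tumour replicate 3 and 2.22 without healthy-skin replicate 2. Inhba, the beta A subunit, had 5.69, 5.22 and 5.38 against 7.11, 6.14 and 4.94, with tumour replicate 3 below all healthy-skin values (difference 0.63, standard error 0.55). Without tumour replicate 1 the difference was 0.11, and without tumour replicate 3 it was 1.19.

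Tgfb3 had 2.93, 4.04 and 4.27 in healthy skin and 3.78, 7.15 and 3.15 in tumours, so that tumour replicate 2 alone set its positive difference of 0.95; without that array the difference was -0.28. The summed linear signal of the 9 macrophage markers was also highest in tumour replicate 2. It was 5750 there, against 1410 and 1656 in the other tumours and 1321 to 1400 in healthy skin. Not every marker followed the sum. Cd68 was highest in healthy-skin replicate 1 (9.55, against 6.88 in tumour replicate 2) and Mrc1 in healthy-skin replicate 3 (8.41, against 8.05). On average 8 of the 9 were higher in tumours, Cd68 by only 0.0086, and none was below background on all arrays. Other marker lists were high in tumour replicate 2 as well. The mean log2 signal of the pericyte and smooth muscle markers was 6.84 there, the highest of the 6 arrays, although their sum was slightly higher in tumour replicate 1. The fibroblast mean was 9.60 there, against 8.85 and 5.91 in tumour replicates 1 and 3 and 10.05 in healthy-skin replicate 2. The part of any of these markers in the Tgfb3 value was not tested. Tgfb1, the isoform most widely expressed in the body, had probe sets that pointed in opposite directions, -0.40 on the representative 1445360_at and 0.65 on 1420653_at, with 3.30, 3.24 and 3.52 against 4.19, 3.46 and 4.36 on the latter. Tgfb2 differed by -0.30 on its representative probe set (standard error 0.34) and by -0.62 on 1438303_at, above background on 3 arrays. On 1450922_a_at and 1450923_at, above background on 1 and 0 arrays, it differed by 0.15 and 0.44.

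Of the BMP ligands, Bmp7 exceeded background on 4 arrays on its representative probe set, and the others on 2 or fewer. Bmp7 had 4.13, 3.92 and 5.28 against 4.28, 2.76 and 3.63 (difference -0.89, standard error 0.53). Its other probe sets, above background on 1 and 0 arrays, differed by -0.26 and -0.40. Bmp4 exceeded background on 2 arrays, with 5.26 in healthy-skin replicate 2 and 3.58 in tumour replicate 1, and differed by -0.40 with a standard error of 0.96. Bmp2 and Bmp6 differed by 0.16 and 0.24, with signal above background on 0 and 1 arrays. No ligand had groups without overlap on its representative probe set, and 5 of 9 were higher in tumours.

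Among the antagonists and modulators, Grem1, a secreted BMP antagonist, had 4.67, 4.54 and 4.99 in healthy skin and 6.94, 5.59 and 4.24 in tumours. As for Inhba and Acvr1, tumour replicate 3 was the lowest tumour, here below all healthy-skin values, and the difference was 0.86 with a standard error of 0.65. It was 0.18 without tumour replicate 1 and 1.53 without tumour replicate 3. Nog, the BMP antagonist noggin, differed by 0.80 with a standard error of 0.38, from values of 1.89 to 2.52 and 2.28 to 3.31 that were all below background. Ltbp1, which holds latent TGF-beta in the matrix, had 4.53, 7.33 and 6.01 against 3.79, 6.64 and 4.04 (difference -1.14, standard error 0.96), and another probe set above background on 5 arrays differed by -0.03. The former difference ranged from -2.05 without tumour replicate 2 to -0.45 without healthy-skin replicate 2. Ltbp2, a matrix relative, ranged from 4.12 to 5.38 in healthy skin and from 3.85 to 6.52 in tumours (difference 0.33). Skil, the SMAD corepressor SnoN, differed by 0.40 and 0.11 on its probe sets.

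**Figure D3:**
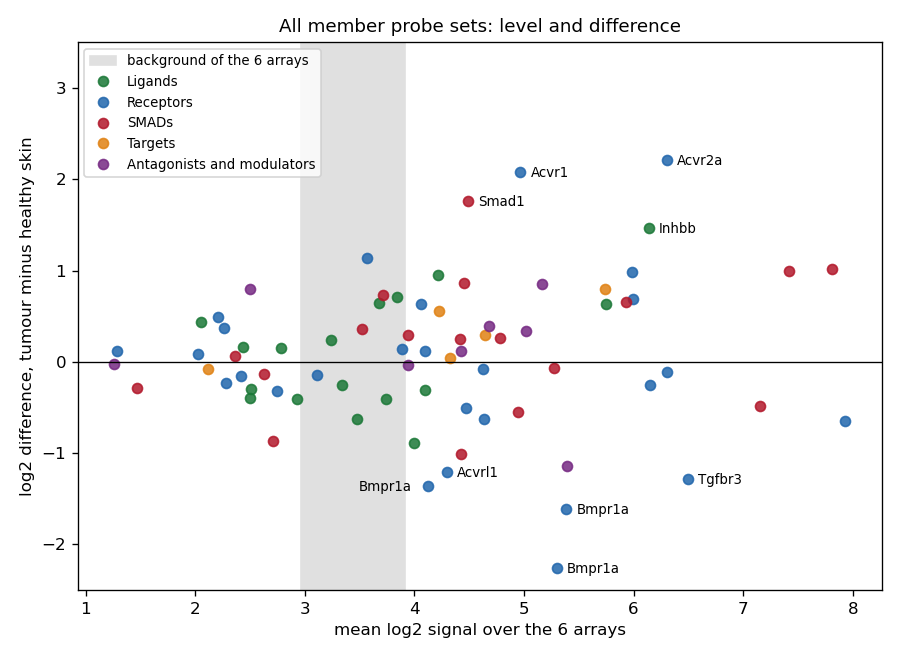
Mean log2 signal over the 6 arrays (horizontal axis) and log2 difference, tumour minus healthy skin (vertical axis), of all 75 member probe sets by role; the grey band spans the background of the 6 arrays, 2.96 to 3.91. Acvr1, Acvr2a and the lower Bmpr1a probe sets lie to the right of the band, whereas the other probe sets of Acvr1 lie to the left of it near 0.

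Probe sets of a gene often disagreed. Among genes with 2 or more probe sets above background on at least 3 arrays, all of a gene's differences had the same sign in 10 of 17 members (58.8%) and in 47.9% of 4397 genes overall. The 34 genes had up to 6 probe sets each, and 11 had only 1.

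Other genes of the pathway were taken from a list of 76 symbols, of which 66 were measured under a single symbol. None passed limma at an adjusted p under 0.05. At an unadjusted p under 0.05, 9 were higher in tumours (13.6%, beside the 3.22% of all genes) and 4 lower (6.06%, beside 4.28%). Groups did not overlap in 11 higher (16.7%, beside 6.58% of all genes) and 3 lower (4.55%, beside 5.36%), and the median difference was 0.18, beside 0.08 over all genes. Sostdc1, a BMP and Wnt antagonist of skin appendages, had 5.81, 7.67 and 5.85 in healthy skin and 4.00, 3.62 and 4.03 in tumours, well separated groups with a difference of -2.56 and a standard error of 0.54 (limma adjusted p = 0.46). Its second probe set pointed the same way with -1.64. Itgb8, an integrin subunit that helps to activate latent TGF-beta, had 4.17, 4.71 and 2.98 against 2.29, 2.63 and 1.13, the tumour values all below background (difference -1.94, limma adjusted p = 0.644). The keratinocyte markers were lower in the same arrays, as given above, and their part in both results was not tested.

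Ltbp4, a matrix protein that binds latent TGF-beta, had 5.99, 4.88 and 4.36 in healthy skin and 7.94, 6.69 and 6.71 in tumours, without overlap (difference 2.04, standard error 0.54, limma adjusted p = 0.583). Tgif1, a homeodomain repressor that binds SMADs, had 3.63, 3.60 and 6.06 against 7.83, 7.90 and 6.08. Healthy-skin replicate 3 and tumour replicate 3 nearly met there (difference 2.84, standard error 0.81, limma adjusted p = 0.62). Zfyve9, which encodes the SMAD anchor SARA, differed by 0.90, and Amh, a TGF-beta family hormone, by 0.84. Hjv, a BMP co-receptor of iron regulation (1.41), and the type I receptor Bmpr1b (0.85) had no healthy-skin value above background. All 4 had groups without overlap and none passed (limma adjusted p = 0.692, 0.71, 0.594 and 0.71).

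A few further genes are given for their place in the pathway and were chosen after their values were seen. Eng, the endothelial co-receptor endoglin that works with ALK1, had 6.09, 5.48 and 5.34 in healthy skin and 6.39, 6.14 and 6.18 in tumours, without overlap (difference 0.60, standard error 0.30, limma adjusted p = 0.843). Ccn2, a matricellular gene induced by TGF-beta, had 6.12, 6.88 and 7.26 against 8.39, 8.40 and 7.24, where tumour replicate 3 fell within the healthy-skin range (difference 1.25). Smurf2, a ubiquitin ligase that acts on SMADs and receptors, was higher on all 3 of its probe sets, by 0.95, 1.00 and 0.68. Hey1, a Notch target that BMP signals can also induce, differed by -1.24. The extracellular antagonists Fst and Chrd differed by 0.04 and 0.19 on their representative probe sets. Another Fst probe set, 1434458_at, above background on 4 arrays, differed by -1.57 with a standard error of 0.91.

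**Figure D4:**
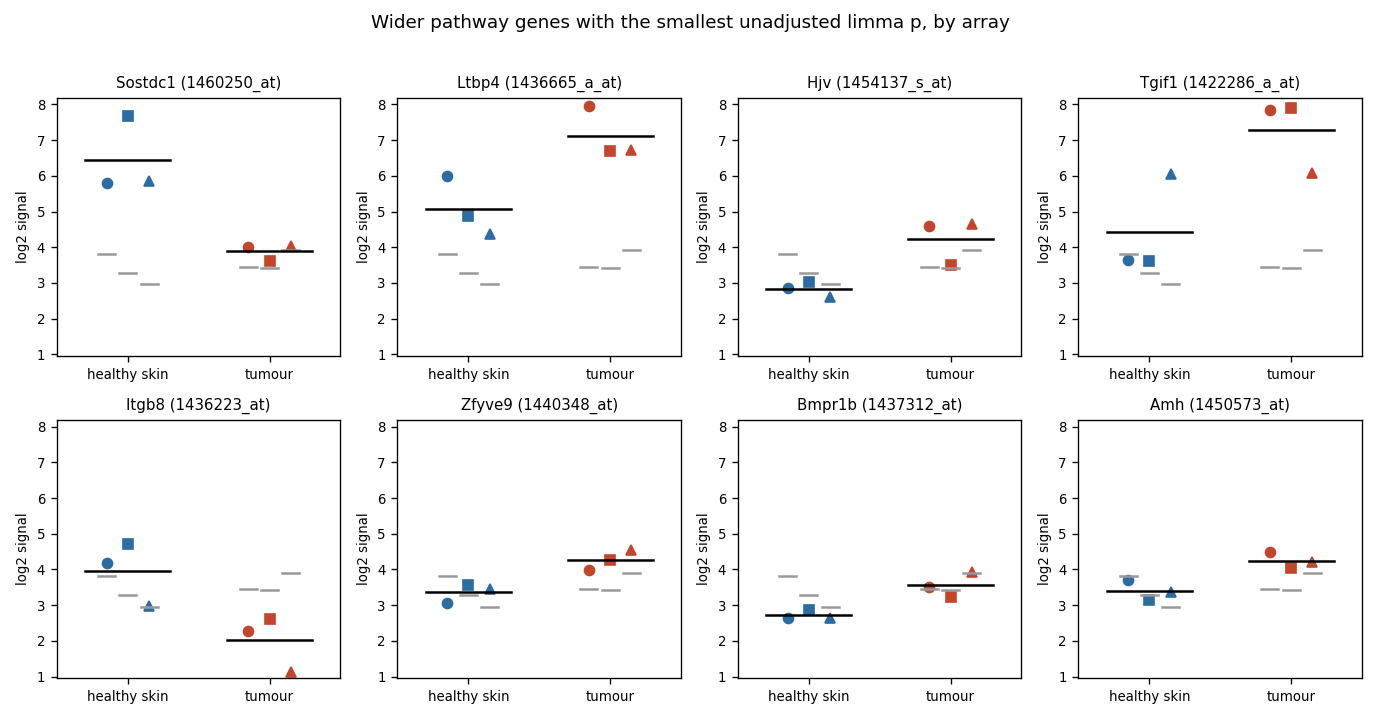
Log2 signal (vertical axis) of the 8 other pathway genes with the smallest unadjusted limma p, in healthy skin (blue) and tumours (red); circles, squares and triangles are replicates 1, 2 and 3, black lines are group means and grey ticks are each array's background. Sostdc1 and Itgb8 lie lower in tumours and the other 6 genes higher, with Hjv and Bmpr1b near background.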

How the data were processed

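Signal was measured on 6 mouse Affymetrix arrays, 3 for healthy skin and 3 for tumour-associated LECs. The authors deposited linear intensity values per probe set, made with RMA per the submitters' processing notes, with software and version not given in the sources used here. Their range showed a linear scale. RMA is meant to equalise arrays, so overall differences in RNA amount are not visible. Some difference between the arrays remained, with median linear signals from 9.49 (healthy-skin replicate 3) to 10.93 (tumour replicate 3). The values were log2-transformed with no pseudocount, and 64 control probe sets were left out. Gene symbols came from the platform annotation, and all 34 members matched RefSeq by Entrez identifier. A gene was represented by its probe set with the highest mean over 6 arrays. The comparison used limma 3.58.1 under R 4.3.3 (lmFit, eBayes, two-sided, Benjamini-Hochberg over 45037 probe sets), tested on simulated data. The arrays' number limits the precision. Members with an unadjusted p under 0.05 or groups without overlap on any probe set are given array by array; of the other pathway genes, at most 8 by smallest p were named by rule. The members and lists were chosen with earlier results of these data known.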

Additional observations from a re-analysis of the deposited data

How the results depend on the processing

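Member probe sets and wider pathway genes called by limma stayed at 0 under every alternative that was run, against 3 members and 13 wider genes at an unadjusted p under 0.05. Over all probe sets the calls went from 2 to 21 after a filter on dim probe sets and 22 with array weights, 1 with trend and robust options, and 0 after centring on array medians, with a pseudocount of 16 or with the replicate number as a block; leaving out each array gave 0 to 23. Members at an unadjusted p under 0.05 in either direction numbered 3 in the main fit (7.5% of all genes). They numbered 5 after quantile normalization (8.06% of all genes) and 10 with array weights (13.5% of all genes). The count was 6 with the block (7.95% of all genes) and 5 with the mean over a gene's probe sets (7.22% of all genes). It lay between 3 and 6 when each array was left out (5.72% to 9.45% of all genes). Acvr1 was among these members in each of these fits. Members without overlap numbered 6 to 10 with an array left out, when such separation is easier (18.9% to 30.8% of all genes). The members' median difference of 0.31 stayed positive, and lay between 0.154 with the pseudocount and 0.398 after the filter on dim probe sets; it was 0.166 with the mean over probe sets, 0.204 without tumour replicate 1 and 0.197 without tumour replicate 2. Each of these moves was smaller than the median's spread between replicates (0.32), which was about as large as the median. The median over all genes was also positive in every fit, from 0.0165 without healthy-skin replicate 3 to 0.183 without healthy-skin replicate 1. In the main fit the median over all 75 member probe sets was 0.115, against 0.0587 over all probe sets. Same-numbered arrays of the groups correlated by 0.04, 0.10 and -0.01 in their deviations, so the numbers were not taken as pairs, and not every array correlated best with its own number. Differences that changed sign without reaching the threshold were Tgfbr2 (-0.0056) and Smad7 (-0.0485) with array weights, and, over the mean of a gene's probe sets, Tgfb1 (0.12), Smad2 (-0.0023), Smad4 (0.0605) and Smad7 (-0.11); the cause was not tested. With an array left out, ranges crossed 0 for Tgfbr2 (-0.0639 to 1.85), Smad6 (-0.386 to 0.0992), Smad7 (-0.288 to 0.295), Bmp2 (-0.0531 to 0.375), Bmp4 (-1.21 to 0.661), Bmp6 (-0.00614 to 0.508), Ltbp2 (-0.331 to 1), Tgfb3 (-0.276 to 1.72) and Skil (-0.311 to 0.869). Signals below background limit Bmp2, Smad6, Smad7 and Nog.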
